A study of Mus musculus with 13 samples.

Results

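Keratins, keratin associated proteins and cornified envelope genes were followed in colorectal tissue of mice that develop tumors of the large bowel. Every gene was included whose name on the array began with Krt and a digit, Krtap, Krtdap, Lce and a digit or Sprr, or was Flg, Lor, Ivl or Crct1, so the choice used names and no measured value. The array held 140 such genes, read by 175 probes. Of these, 104 genes passed the filter, which asks for a probe called well above background by the scanner software on 2 or more of the 13 arrays, among 25413 genes that passed. Unless stated otherwise, member values below come from those 104 genes, each read by its brightest probe. No member probe was saturated on any array.

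All mice were CPC-Apc mice, which carry a nuclear Cre recombinase driven by a CDX2 promoter (CDX2P-NLS Cre) and 1 Apc allele flanked by loxP sites (Apc+/loxP). Cre can thus remove that 1 allele only where the promoter is or was active. No mouse without the transgene was measured. The 4 groups were tumors of mice given microRNAs (2 arrays), tumors of control mice (7 arrays), normal tissue of mice given microRNAs (2 arrays) and normal tissue of control mice (2 arrays). The microRNA mice received miR-200c, miR-302a, -b, -c and -d, and both strands of miR-369 on carbonate apatite particles by tail vein, in doses of 25 µg each; the 24 injections began when the mice were 8 weeks old and were given 3 per week. The labels of the control mice name a negative control microRNA and give no separate schedule for it. The same start age of 8 weeks, 24 injections, 3 per week and 25 µg are recorded for the control samples. No label says how many mice gave the 13 samples or which samples share a mouse, so the p-values measure the spread between these samples.

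Keratins are the intermediate filament proteins of epithelial cells and assemble as pairs of an acidic type I and a basic type II chain. Single-layered epithelia such as the colon use Krt8 with Krt18, Krt19 and Krt20. Stratified epithelia use Krt5 with Krt14 in the basal layer and Krt1 with Krt10 above it, and then build the cornified envelope from loricrin (Lor), involucrin (Ivl), filaggrin (Flg) and the small Lce and Sprr proteins. The hair follicle adds inner root sheath keratins, hair shaft keratins and the keratin associated proteins (Krtap) that cross-link them. By this textbook scheme the 140 genes fell into 4 simple epithelial keratins, 5 other simple or unclassified keratins, 3 basal squamous keratins, 16 suprabasal, stress and mucosal squamous keratins, 8 inner root sheath and companion layer keratins, 16 hair shaft and nail keratins, 51 keratin associated proteins and 37 cornified envelope genes. They lie in a few gene clusters: the probes mapped to chromosome 11 for 47 genes, chromosome 3 for 36, chromosome 15 for 24 and chromosome 16 for 21.

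RefSeq promoters (250 bases before to 50 after a gene's start, assembly GRCm38.p6) were matched by symbol for 113 of the 140 genes. The letters TATAAA, the core of a TATA box, stood on either strand of 72 of them (63.7%), against 13.6% of all 32851 promoters of that length. They were present for 37 of the 45 keratin associated proteins with a promoter, 16 of 33 cornified envelope genes, 7 of 10 hair shaft and nail keratins and none of the 2 basal keratins. The AP-1 letters TGANTCA stood in 23 (20.4%, against 7.81% of all promoters), 13 of them cornified envelope genes. The KLF letters CACCC stood in 65 (57.5%, against 57.5%), the TCF/LEF letters CTTTGAT in 5 (4.42%, against 3.73%) and the HOX13 and CDX letters CAATAAA in 2 (1.77%, against 4.60%). Both strands were searched for each motif, each promoter was counted once per motif whatever its number of matches, and neighbouring matches may overlap. A match describes the letters of this window only. The promoters below are of a simple keratin that was lower in tumors (Krt20), members that were higher in tumors (Krt23, Krt36, Sprr2h) and members that stood out in normal tissue of control mice (Krt5, Lor), with the matches to these 5 motifs in capitals.
Krt20 (GRCm38.p6, chr11:99438104-99438403, minus strand): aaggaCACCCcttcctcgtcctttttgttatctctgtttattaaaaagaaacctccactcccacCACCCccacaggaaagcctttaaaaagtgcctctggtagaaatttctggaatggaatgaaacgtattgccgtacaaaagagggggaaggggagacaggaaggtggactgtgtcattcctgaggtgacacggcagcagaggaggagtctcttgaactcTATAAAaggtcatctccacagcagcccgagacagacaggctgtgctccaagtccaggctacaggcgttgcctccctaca
Krt23 (GRCm38.p6, chr11:99493071-99493370, minus strand): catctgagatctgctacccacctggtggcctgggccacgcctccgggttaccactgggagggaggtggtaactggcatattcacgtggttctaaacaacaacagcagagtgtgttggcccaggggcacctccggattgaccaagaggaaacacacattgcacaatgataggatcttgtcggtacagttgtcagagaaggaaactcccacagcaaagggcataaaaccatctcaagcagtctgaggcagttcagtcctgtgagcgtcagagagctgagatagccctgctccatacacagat
Krt36 (GRCm38.p6, chr11:100105577-100105876, minus strand): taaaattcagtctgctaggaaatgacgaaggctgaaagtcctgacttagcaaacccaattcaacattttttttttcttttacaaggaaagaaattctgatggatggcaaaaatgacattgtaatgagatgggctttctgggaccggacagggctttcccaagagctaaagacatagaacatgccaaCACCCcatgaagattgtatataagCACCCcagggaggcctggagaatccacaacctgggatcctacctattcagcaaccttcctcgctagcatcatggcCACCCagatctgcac
Sprr2h (GRCm38.p6, chr3:92385435-92385734, plus strand): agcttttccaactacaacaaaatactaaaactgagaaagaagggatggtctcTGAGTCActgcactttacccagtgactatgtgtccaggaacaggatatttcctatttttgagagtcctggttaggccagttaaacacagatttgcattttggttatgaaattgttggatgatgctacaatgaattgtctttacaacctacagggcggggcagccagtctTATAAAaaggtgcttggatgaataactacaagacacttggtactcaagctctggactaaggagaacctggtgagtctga
Krt5 (GRCm38.p6, chr15:101712856-101713155, minus strand): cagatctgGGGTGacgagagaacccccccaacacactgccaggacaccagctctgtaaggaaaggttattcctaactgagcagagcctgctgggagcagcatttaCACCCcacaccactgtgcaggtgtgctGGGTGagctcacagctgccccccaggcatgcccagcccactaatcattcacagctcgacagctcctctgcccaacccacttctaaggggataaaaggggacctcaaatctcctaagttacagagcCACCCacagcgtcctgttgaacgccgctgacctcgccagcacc
Lor (GRCm38.p6, chr3:92083093-92083392, minus strand): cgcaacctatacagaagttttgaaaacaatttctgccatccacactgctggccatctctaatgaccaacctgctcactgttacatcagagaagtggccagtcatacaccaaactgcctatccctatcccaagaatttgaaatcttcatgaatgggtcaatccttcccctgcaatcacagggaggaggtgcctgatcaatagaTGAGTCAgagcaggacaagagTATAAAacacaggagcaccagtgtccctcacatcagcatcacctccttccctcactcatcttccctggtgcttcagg
Krt20, Sprr2h and Lor carry TATAAA, Sprr2h and Lor also carry an AP-1 match, Krt36 and Krt5 carry only KLF matches, and Krt23 carries none of the 5 motifs.

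Levels are log2 values of the processed signal relative to the 75th percentile of all probes on the same array, so 0 is the signal of that percentile. They are not comparable between probes. A difference was called when limma's Benjamini-Hochberg adjusted p over all 25413 genes was under 0.05, in a fit to all 13 arrays. The 75th percentile lay at 412 to 736 intensity units in tumors and 213 to 319 in normal tissue, and the share of probes above background was 50.7% to 57.0% per array. Without scaling between arrays the median tumor effect over all genes was 0.89, against -0.11 with it, so small tumor effects depend on that step. A difference in RNA level in bulk tissue cannot tell fewer cells of a type apart from less RNA per cell. The arrays lay on 2 slides: slide 2 held both control normal arrays, control tumor 3, microRNA tumor 1 and microRNA normal 1, and slide 1 held the other 8. Many squamous, hair and cornified envelope genes were brightest on the control normal arrays, and a few members were brightest in tumors.

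**Figure D1:**
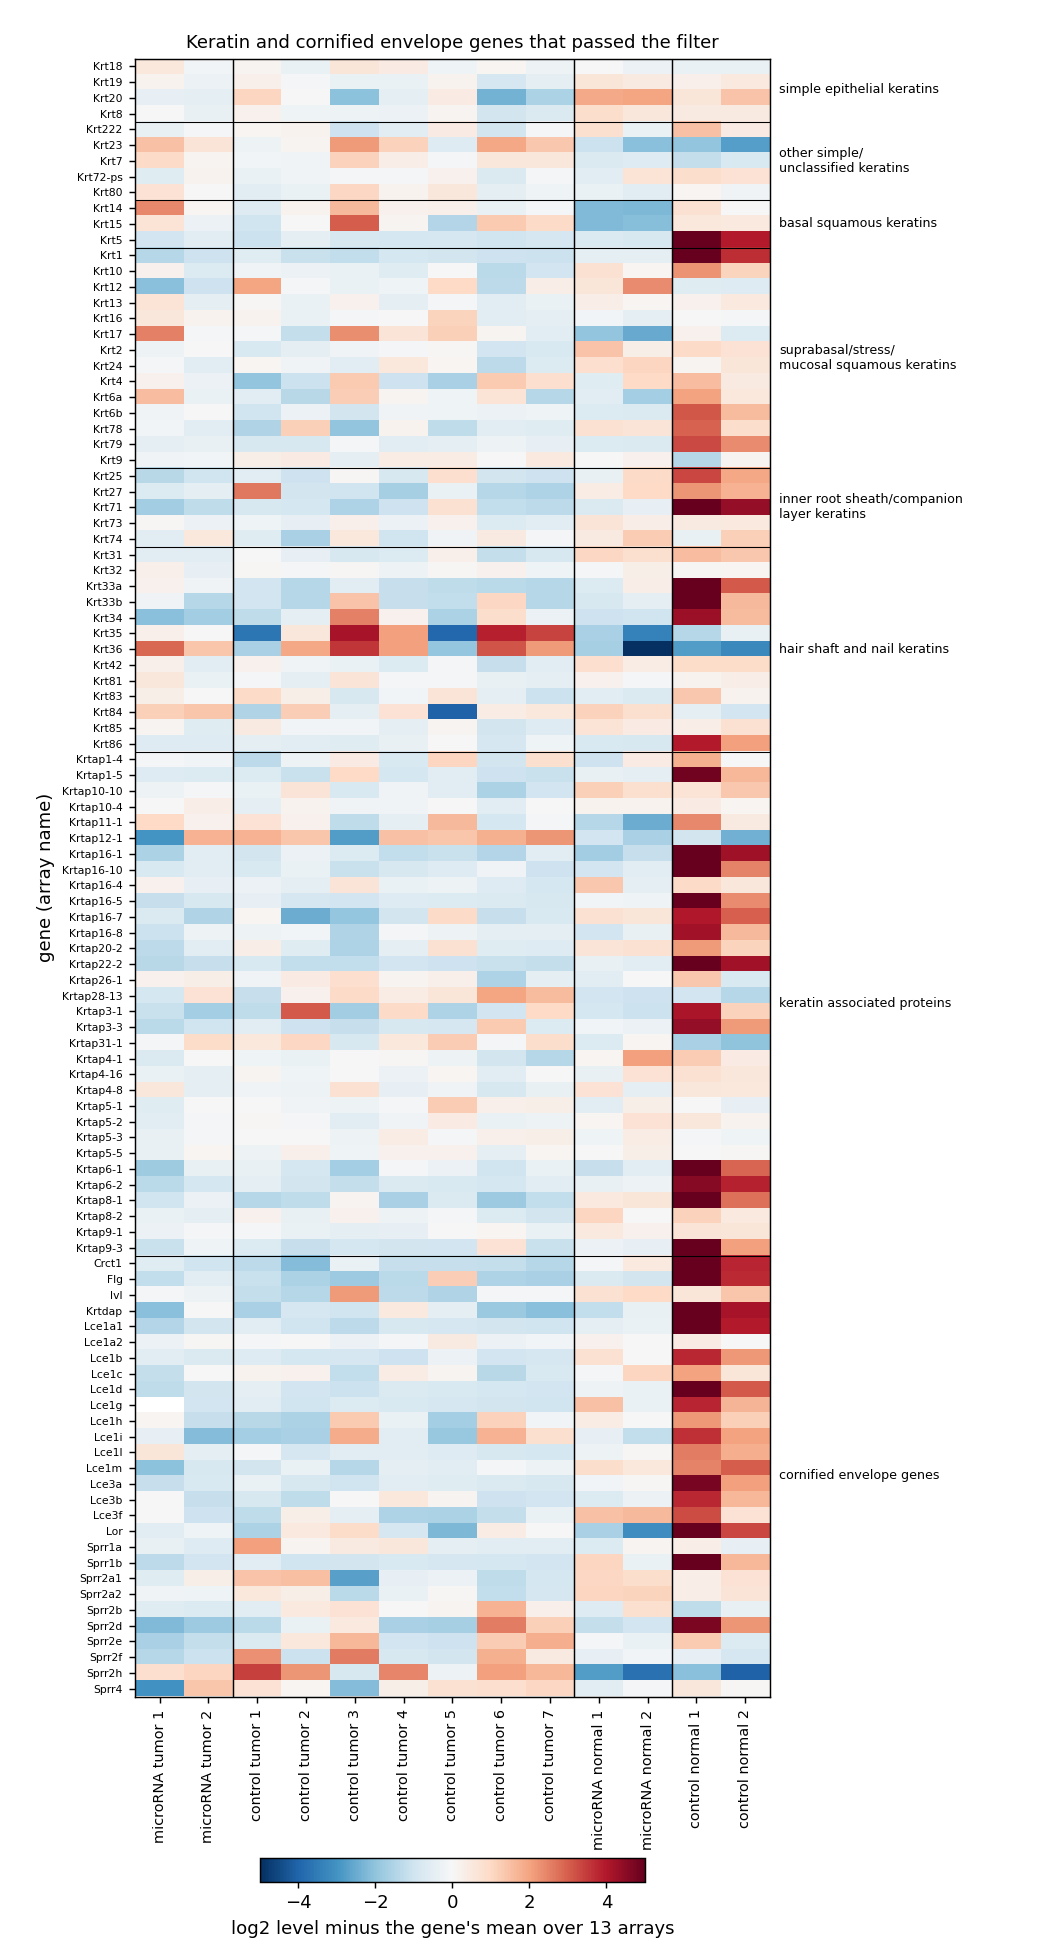
Rows are the 104 genes that passed the filter, grouped by class, and columns are the 13 arrays. Colour shows the log2 level minus the gene's mean over the 13 arrays (white is a missing value or no difference, and the scale ends at 5 in either direction); the deep red blocks of squamous, hair and cornified envelope genes lie in the 2 control normal columns.

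The simple epithelial keratins were bright on all 13 arrays and 3 of the 4 were lower in tumors. Krt8, the type II partner of Krt18, read 8.37 and 8.02 in microRNA tumors, a median of 8.15 (7.45 to 8.61) over control tumors, 9.25 and 8.96 in microRNA normal tissue and 8.85 and 8.84 in control normal tissue. Every tumor array was thus below every normal array. Over both groups of mice the tumor effect was -0.81 ± 0.22 (log2, SE, n = 9 tumors and 4 normal samples; limma adjusted p = 0.0159), but it was 0.18 without scaling, so its direction rests on the scaling. Krt19, a small type I keratin of glandular epithelia, read 7.68 and 7.21 in microRNA tumors, a median of 7.16 (6.66 to 7.78) over control tumors, 8.11 and 7.95 in microRNA normal tissue and 7.77 and 7.98 in control normal tissue. The highest control tumor lay just above the lowest control normal sample, and the effect of -0.60 ± 0.21 (limma adjusted p = 0.0466) became 0.39 without scaling and lost its call on each slide alone. The Krt19 call was also lost in 9 of 13 leave-outs.

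Krt20, a keratin of differentiated cells at the mucosal surface, moved most in this class. It read 5.80 and 5.74 in microRNA tumors, a median of 5.79 (3.84 to 7.31) over control tumors, 8.10 and 8.20 in microRNA normal tissue and 6.81 and 7.65 in control normal tissue. Control tumor 1, at 7.31, lay between the 2 control normal arrays, while both microRNA tumors lay below all 4 normal arrays. The tumor effect was -1.98 ± 0.59 over both groups of mice (limma adjusted p = 0.025) and -0.98 without scaling, where it was not called. Krt18, the type I partner of Krt8, was not called in any comparison and read 7.42 to 8.36 across all 13 arrays, with a tumor effect of 0.37 ± 0.21 (adjusted p = 0.189). None of the 4 was called in control mice or in microRNA mice alone: the adjusted p of Krt20 was 0.131 in control mice and 0.179 in microRNA mice. Of 10 marker genes of the colon epithelium, 5 were called lower in tumors over both groups of mice (background 19.6% of all genes) and none higher. The 5 were Cdx2, Slc26a3, Car1, Fabp2 and Lgals4. None of the 10 was called in control mice or in microRNA mice alone. The summed signal of the 10, in multiples of the 75th percentile, was 721 to 734 in microRNA tumors, 234 to 1363 in control tumors, 2040 to 2221 in microRNA normal tissue and 1239 to 1986 in control normal tissue. Their part in the lower keratin levels was not tested.

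Few members were higher in tumors. Over both groups of mice 6 of the 104 were called higher (background 11.7% of all genes) and 55 lower (background 19.6%). In all 61 were called (background 31.4%). Without scaling the split was 23 higher and 27 lower, against 14568 higher and 693 lower over all genes. The 6 were Krt7, Krt23, Krt36, Sprr2h, Krtap31-1 and Krtap28-13, and 4 of them were also called higher in control mice alone (background 8.25%). The median tumor effect was -1.08 over the members that passed and -0.11 over all genes. However, 20 of the 104 (background 0.342% of all genes) passed the filter only through the control normal arrays and had to be lower elsewhere. Leaving out those 20, 35 of the other 84 were called lower. The 84 may still hold members that passed through the control normal arrays and few others. For such members the filter also favoured lower tumors.

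Krt7 and Krt23 are keratins of simple and ductal epithelia, and both were well above background on all 13 arrays. Krt23 read 5.20 and 4.38 in microRNA tumors, a median of 4.89 (3.10 to 5.88) over control tumors, 2.67 and 1.65 in microRNA normal tissue and 1.77 and 0.99 in control normal tissue. All 9 tumors were above all 4 normal samples. The effect was 2.97 ± 0.52 over both groups of mice (limma adjusted p = 0.00249), 3.19 ± 0.69 in control mice (adjusted p = 0.0135) and 2.63 ± 0.86 in microRNA mice (adjusted p = 0.112). Krt7 read 4.29 and 3.46 in microRNA tumors, a median of 3.63 (3.14 to 4.47) over control tumors, 2.59 and 2.68 in microRNA normal tissue and 2.11 and 2.55 in control normal tissue. Its groups did not overlap either, with an effect of 1.28 ± 0.26 over both groups of mice (adjusted p = 0.00478) and 1.30 ± 0.35 in control mice (adjusted p = 0.0274). On slide 2 alone, which holds samples of all 4 groups, the effects over both groups of mice were 3.66 for Krt23 and 1.95 for Krt7; on slide 1, where the normal tissue is 1 microRNA sample, they were 2.73 and 0.77 and were not called. With either control normal array left out, the control-mouse calls of both genes were lost.

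Sprr2h, a small proline-rich protein gene of the cornified envelope family, was well above background in all 9 tumors and in none of the 4 normal samples. It read -1.47 and -1.25 in microRNA tumors, a median of -0.26 (-3.12 to 1.08) over control tumors, -5.12 and -6.06 in microRNA normal tissue and -4.40 and -6.38 in control normal tissue. Its tumor level was at least 22.4-fold higher over both groups of mice (adjusted p = 0.00161) and at least 21.7-fold higher in control mice (adjusted p = 0.0114), where "at least" sets each array of the lower group at the faintest signal counted as well above background there, or at the probe's own signal where that is higher. In the second case the bound equals the difference of the group means. Where that held on every array, the fold is given by the group means, without "at least". The bound allows for background and not for the spread between samples. Sprr2h passed the filter through tumors alone, so the filter favoured this direction. In control mice its call was lost in 2 of 13 leave-outs. Sprr2a2, the member of the same family with the brightest probe, moved the other way. It read 8.01 and 7.97 in microRNA tumors, a median of 7.87 (6.84 to 8.73) over control tumors, 9.28 and 9.31 in microRNA normal tissue and 8.53 and 8.85 in control normal tissue, with a tumor effect of -1.05 ± 0.35 (adjusted p = 0.0363). That call was lost in 7 of 13 leave-outs. The Sprr2 genes are near-identical copies, so how far each probe reads its own gene is uncertain.

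**Figure D2:**
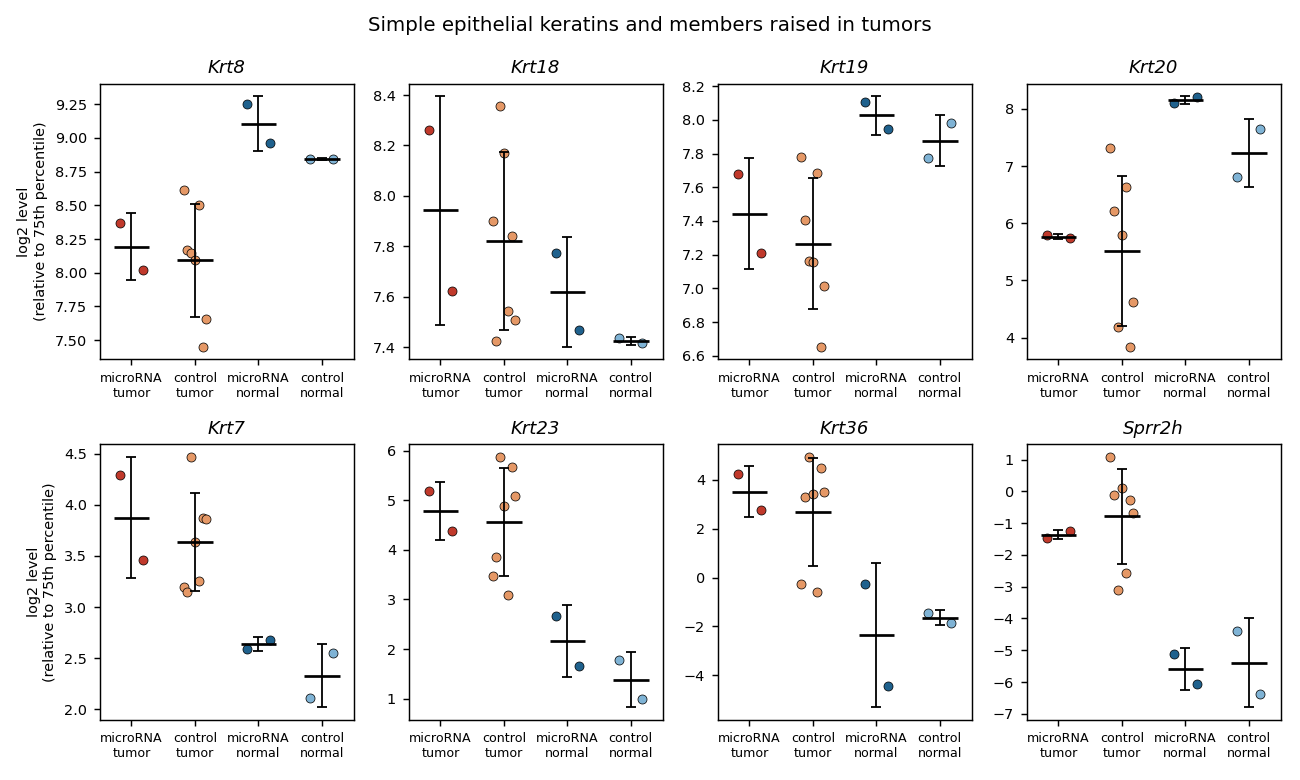
Each panel shows 1 gene, with the log2 level on the vertical axis (each panel has its own range) and the 4 groups on the horizontal axis; points are arrays, the long bar is the group mean and the whiskers are 1 SD. The tumors lie below the normal samples for Krt8, and above them for Krt7, Krt23 and Sprr2h; 2 control tumors lie close to the highest normal sample for Krt36.

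Krt36, a hair and nail keratin that is also known in filiform papillae of the tongue, had the largest called rise. It read 4.26 and 2.77 in microRNA tumors, -0.27 and -4.44 in microRNA normal tissue and -1.43 and -1.87 in control normal tissue. In control tumors the values were -0.25, 3.29, 4.94, 3.42, -0.58, 4.50 and 3.5 for tumors 1 to 7. Control tumors 1 and 5 were thus close to microRNA normal 1, the highest normal sample, and the other 7 tumors were 2.77 or higher. The effect over both groups of mice was 4.94 ± 1.12 (limma adjusted p = 0.00774), with 6.27 when the slide was a term of the fit. The effect in control mice, 4.34 ± 1.47, was not called (adjusted p = 0.0579). A second probe of the gene gave the same 2 low control tumors, at -1.80 and -2.27 against 0.98 to 3.13 in the other 7 tumors.

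Krt35, a type I hair shaft keratin of the same cluster that was picked after its values were seen, was lowest in the same 2 control tumors. It read -2.43 and -2.69 in microRNA tumors, -6.31 and -6.61 in control tumors 1 and 5, -2.11 to 1.43 in the other 5 control tumors, -4.31 and -6.05 in microRNA normal tissue and -4.11 and -3.07 in control normal tissue, and no comparison called it. Hoxb13, a homeobox gene known in the mouse for its expression in the distal colon and no keratin gene, was also chosen after its values were seen. Its level was 6.17 and 6.30 in microRNA tumors, -1.56 and -4.53 in control tumors 1 and 5 and 6.25 to 6.64 in the other 5 control tumors. It was 5.66 and -0.49 in microRNA normal tissue and 6.35 and 5.91 in control normal tissue. Low Hoxb13 thus went with low Krt36 in 3 samples, while 3 normal samples had high Hoxb13 and low Krt36. The part of the sample's position along the bowel in the Krt36 values was not tested.

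**Figure D3:**
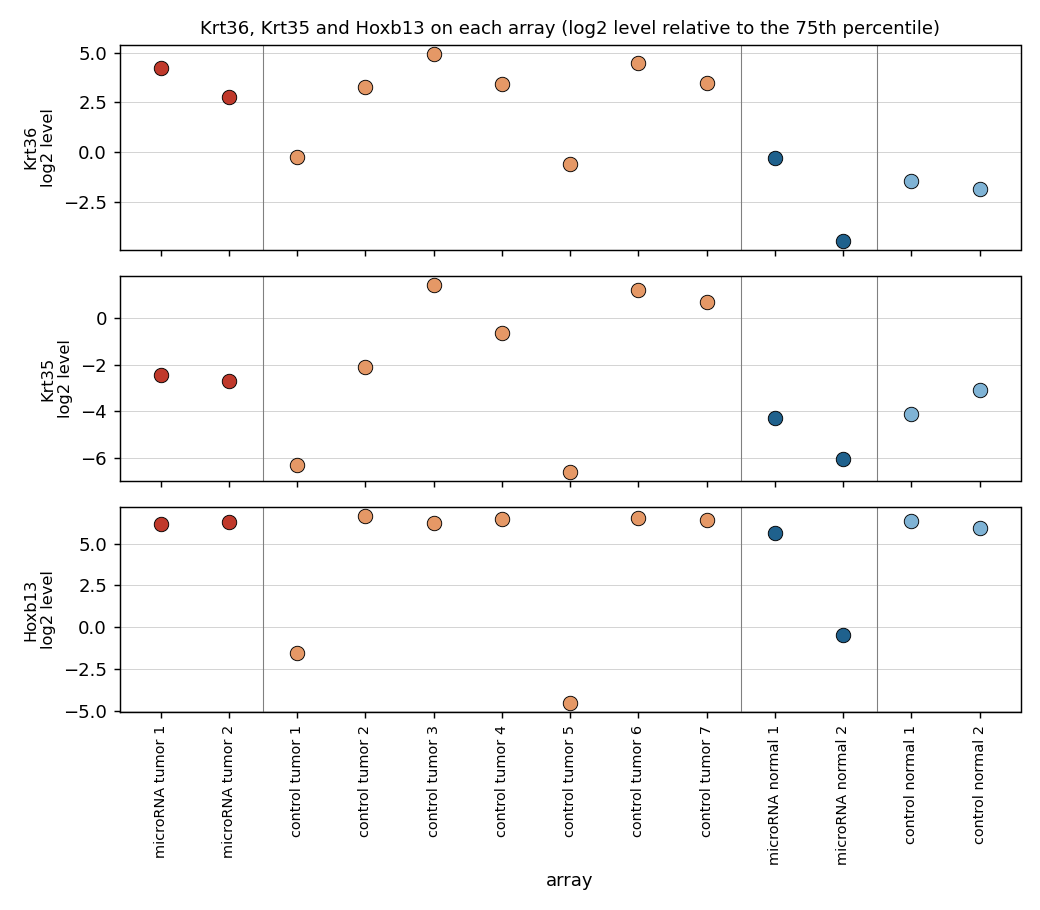
Log2 levels of Krt36, Krt35 and Hoxb13 are plotted for each of the 13 arrays, coloured by group, with vertical lines between the groups. Control tumors 1 and 5 are low in all 3 panels; microRNA normal 1 and both control normal samples are high for Hoxb13 and low for Krt36.

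The other 2 members called higher in tumors were keratin associated protein genes near background. Krtap31-1 read -3.44 and -2.43 in microRNA tumors, a median of -2.83 (-4.12 to -2.06) over control tumors, -4.0 and -3.25 in microRNA normal tissue and -4.95 and -5.35 in control normal tissue. By the group means it was 4.91-fold higher in tumors of control mice (limma adjusted p = 0.0121), but only 0.18 (log2) higher after normexp background correction. That control-mouse call was lost in 2 of 13 leave-outs. Krtap28-13 was above background in 3 control tumors and in no other sample, so the filter favoured its being higher in tumors. Its effect of 1.48 ± 0.51 over both groups of mice (limma adjusted p = 0.0444) lost its call in 10 of 13 leave-outs and was -0.38 after normexp correction.

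The largest differences among the members separated the 2 control normal samples from all others. In control mice 45 members were called lower in tumors (background 10.9%), 20 of which passed the filter only through the control normal arrays. Of the other 84 members, 25 were called lower, and the filter may favour that direction for some of them too. In normal tissue 22 members were called lower in microRNA mice than in control mice (background 0.244%) and none higher (background 0.283%; 0.527% in either direction). Of those 22, 12 passed only through the control normal arrays. All 22 were also among the 45 called lower in tumors of control mice, a comparison that shares the control normal samples. Every control tumor lay below both control normal samples for 51 members (background 18.8%), and both microRNA normal samples did so for 57 (background 17.9%); each count holds the 20 members that passed only through the control normal arrays, whose order the filter all but fixed. By class, the 22 were 9 of the 28 cornified envelope genes that passed, 6 of 32 keratin associated proteins, 3 of 14 suprabasal, stress and mucosal keratins, 2 of 13 hair shaft and nail keratins, 1 of 5 inner root sheath keratins and 1 of 3 basal keratins. None of the 4 simple keratins was among them.

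Krt5, the type II keratin of basal keratinocytes, showed the pattern most plainly. It read -4.40 and -4.01 in microRNA tumors, a median of -4.31 (-4.52 to -3.95) over control tumors, -4.18 and -4.24 in microRNA normal tissue and 1.52 and 0.50 in control normal tissue. The 11 other samples lay close together, far below both control normal samples. By the group means Krt5 was 37.3-fold lower in normal tissue of microRNA mice than in that of control mice (limma adjusted p = 4.21e-05). With 1 array left out, that fitted difference was -5.73 to -4.71 (log2). Krt5 also differed by -5.31 ± 0.25 between tumors and normal tissue of control mice (limma adjusted p = 1.96e-06). Within slide 2 the 2 differences were -5.19 and -5.27, and the first was not called there (adjusted p = 0.106), with 1 microRNA normal array on that slide. Krt1, its suprabasal counterpart, was well above background on the control normal arrays alone, at 1.06 and -1.84, with -5.96 and -6.00 in microRNA normal tissue. It was at least 46.5-fold lower in microRNA normal tissue (limma adjusted p = 0.0018). In tumors of control mice it was 69.6-fold lower by the group means (limma adjusted p = 5.47e-05). With 1 array left out, the fitted Krt1 difference between the normal tissues was -7.04 to -4.15.

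Of the 9 cornified envelope genes called between the normal tissues, 5 had passed only through the control normal arrays; Lor, Flg and Krtdap were among the other 4. Lor, the main protein of the envelope, read -2.24 and -1.94 in microRNA tumors, a median of -1.74 (-3.98 to -0.80) over control tumors, -3.36 and -4.82 in microRNA normal tissue and 3.30 and 1.63 in control normal tissue. Its difference was -6.55 ± 0.98 between the normal tissues (adjusted p = 0.00913) and -4.60 ± 0.79 between tumors and normal tissue of control mice (adjusted p = 0.005). Flg, the precursor of filaggrin, which bundles keratin filaments, read -5.82 and -6.00 in microRNA normal tissue and 2.42 and -1.37 in control normal tissue. By the group means it was 86.6-fold lower in microRNA mice (limma adjusted p = 0.0223). The tumors read -6.34 and -5.60 for Flg in microRNA mice and -6.92 to -3.88 in control mice. Krtdap, a secreted keratinocyte differentiation protein gene, read -5.83 and -4.96 in microRNA normal tissue and 2.38 and -0.46 in control normal tissue. By the group means it was 82.1-fold lower in microRNA mice (limma adjusted p = 0.0124). Without control normal 1, the differences between the normal tissues were -4.54 for Flg, -5.72 for Lor and -4.94 for Krtdap, and all 3 lost their calls. The Flg and Krtdap calls were also lost without either microRNA normal sample, and the Lor call without microRNA normal 2.

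The hair follicle members named next, Krt71, Krt33a, Krtap16-1 and Krtap22-2, were well above background on the 2 control normal arrays alone, so each had passed the filter through the group where it was high. Krt71, an inner root sheath keratin, read -7.29 and -6.84 in microRNA tumors, a median of -6.60 (-7.12 to -4.81) over control tumors, -6.28 and -5.98 in microRNA normal tissue and 0.24 and -1.17 in control normal tissue. It was at least 43.7-fold lower in microRNA normal tissue than in control normal tissue (adjusted p = 0.0018). Krt33a, a hair shaft keratin, read -6.17 and -5.15 in microRNA normal tissue and -0.12 and -2.40 in control normal tissue, at least 18.9-fold lower (adjusted p = 0.00495). Krtap16-1, which the reference annotation names Krtap19-2, read -5.98 and -5.38 in microRNA normal tissue and 2.83 and 0.03 in control normal tissue. That was the largest bound among the genes named here, at least 132-fold lower (adjusted p = 0.000776). Krtap22-2 read -5.86 and -6.02 in microRNA normal tissue and 1.27 and -1.27 in control normal tissue, at least 61.2-fold lower (adjusted p = 0.000525). With 1 array left out, the fitted differences between the normal tissues were -8.51 to -5.71 for Krtap16-1 and -7.21 to -4.67 for Krtap22-2. They were -6.38 to -4.96 for Krt71 and -5.54 to -3.26 for Krt33a. The Krt33a call was lost in 1 of 13 leave-outs. Members of the Krtap and Lce families are close copies, so the share of each gene in its probe's signal is uncertain.

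**Figure D4:**
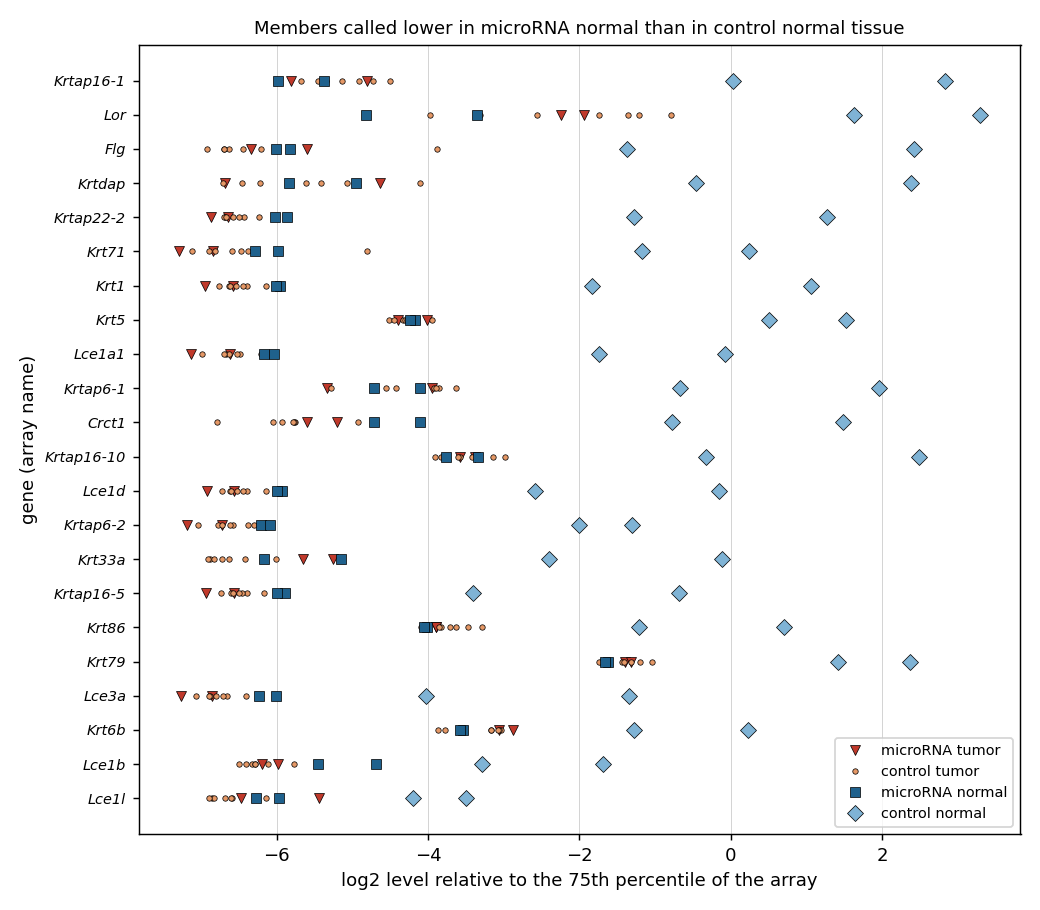
The 22 members called lower in microRNA normal than in control normal tissue are listed down the page, with the log2 level on the horizontal axis and 1 symbol per array (triangles, microRNA tumors; small circles, control tumors; squares, microRNA normal; diamonds, control normal). In each row both diamonds lie to the right of both squares, and the diamonds are 0.70 to 3.79 log2 units apart.

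The 2 control normal samples differed from each other as well. All 22 of these genes were higher in control normal 1 than in control normal 2, with a median gap of 2.28 log2 units (0.70 to 3.79). Genes of the skin outside the keratin families were read beside them. Of 14 tested genes of a list of 20 stratified squamous genes, 3 were called lower in microRNA normal tissue (background 0.244% of all genes) and none higher. Calm4, a calmodulin-like gene of keratinocytes, read -4.18 and -4.64 in microRNA normal tissue and 2.51 and -0.50 in control normal tissue. Calml3, another such gene, read -5.97 and -5.44 in microRNA normal tissue and 0.96 and -1.08 in control normal tissue. Both were above background on the control normal arrays alone. The third was Sbsn, a suprabasal keratinocyte gene above background on all 13 arrays, and the other 11 were not called. Trp63, the transcription factor that marks basal keratinocytes, read 2.74 to 3.62 on all 13 arrays and was not called. Of the list, Dsg1a, Dsg1b, Dsc1, Klk5, Klk7 and Serpinb12 gave no tested gene, and the summed signal of the other 14 was 77.8 to 116 in microRNA tumors, 64.4 to 130 in control tumors, 80.9 to 92.0 in microRNA normal tissue and 101 to 112 in control normal tissue. The brighter genes Perp, Pkp1, Trp63 and Ly6d made up most of that sum, so it says little about the dimmer genes.

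Some markers of other tissues were called between the same samples. Of 8 tested skeletal muscle genes of 11 listed, 7 were called lower in tumors of control mice (background 10.9% of all genes). Myh1, Myh2 and Myh8 were the 3 called lower in microRNA normal than in control normal tissue (background 0.244%). The summed signal of the 8 was 2.83 to 3.87 in microRNA tumors, 2.09 to 5.12 in control tumors, 3.23 to 3.35 in microRNA normal tissue and 9.39 to 15.4 in control normal tissue. Myh8, a skeletal muscle myosin gene, read -2.72 and -3.24 in microRNA normal tissue and 0.29 and 1.66 in control normal tissue. It was thus higher in control normal 2, the opposite order to the skin genes. The other tested muscle genes had the same order as Myh8 except Pvalb, at -0.31 in control normal 1 and -0.93 in control normal 2. None of the 9 tested hair follicle genes of 12 listed was called between the normal tissues. They summed to 4.58 to 5.32 in microRNA tumors, 3.76 to 5.92 in control tumors, 7.76 to 7.99 in microRNA normal tissue and 10.5 to 14.2 in control normal tissue, and Dlx3 made up most of that sum. None of the 5 tested melanocyte genes of 7 was called there, and they summed to 1.07 to 1.25 in microRNA normal tissue and 1.57 to 1.70 in control normal tissue. The 6 tested skin gland genes of 7 summed to 38.7 to 45.4 in microRNA normal tissue and 26.6 to 43.6 in control normal tissue. Fa2h and Plin2, at 3.35 to 4.80 on the normal arrays, made up most of that sum, so it says little about the dimmer genes. Awat1, a wax synthase gene of sebaceous glands, was the 1 gene of these 6 called lower in microRNA normal tissue, at -5.65 and -5.97 against -2.07 and -3.05 in control normal tissue. Elovl3 lay the same way, at -5.89 and -6.05 against -2.90 and -3.75, but was not called. Fa2h, Plin2, Mc5r and Scd3 were 0.05 to 0.56 (log2) higher in microRNA normal tissue and were not called. The part of other tissue in the control normal samples in these keratin differences was not tested, and it cannot be told apart from the control mice with 2 samples in the group.

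Other squamous keratins were not called between the normal tissues. Krt14, the type I partner of Krt5, read 1.72 and -0.59 in microRNA tumors, a median of -0.52 (-1.33 to 0.96) over control tumors, -2.87 and -2.93 in microRNA normal tissue and 0.09 and -0.71 in control normal tissue. It was low in the 2 microRNA normal samples and higher in the other 3 groups, so it was called higher in tumors of microRNA mice, by 3.46 ± 0.75 (limma adjusted p = 0.0306), but not in control mice (-0.19 ± 0.60, adjusted p = 0.833). The microRNA-mouse call was lost with either microRNA normal sample or with microRNA tumor 1 left out, when the effect was 2.31 to 3.49. On each slide alone it was 2.34 (slide 1, not called) and 4.59 (slide 2, called at adjusted p = 0.0495). Krt15, another basal keratin, read -0.67 and -1.63 in microRNA tumors, -2.78 to 1.71 in control tumors, -3.55 and -3.47 in microRNA normal tissue and -0.82 and -0.86 in control normal tissue, and was not called. Krt17, a keratin of wounded and hyperproliferative epithelium, read 3.36 and 0.79 in microRNA tumors, -0.36 to 3.17 in control tumors, -1.16 and -1.71 in microRNA normal tissue and 1.05 and 0.13 in control normal tissue, with an adjusted p of 0.0842 in microRNA mice. Control tumor 3 was the highest control tumor for all 3 genes.

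Lce1m, a late cornified envelope gene, was the only other member called in microRNA mice, where 1 of 104 was called higher (background 1.42%) and 1 lower (background 1.76%), 2 in all (background 3.18%). It read -6.67 and -5.41 in microRNA tumors, -6.03 to -4.73 in control tumors, -3.74 and -4.08 in microRNA normal tissue and -2.14 and -1.59 in control normal tissue. Lce1m passed the filter only through the control normal arrays, so no array of the microRNA mice was well above background for it. Its fitted tumor effect in microRNA mice, -2.13 ± 0.47 (limma adjusted p = 0.0345), is thus a difference between values near background. That call was lost in 4 of 13 leave-outs. Krt10, the type I partner of Krt1, was above background on all arrays and read 0.38 and -0.51 in microRNA tumors, -1.17 to 0.19 in control tumors, 0.96 and 0.28 in microRNA normal tissue and 2.44 and 1.29 in control normal tissue. It was called lower in tumors of control mice (-2.21 ± 0.41, adjusted p = 0.00736), while its difference between the normal tissues, -1.24 ± 0.51, was not called (limma adjusted p = 0.807). A second Krt10 probe, also above background on all arrays, read -0.65 and -0.71 in microRNA normal tissue and 3.07 and 1.39 in control normal tissue, a mean difference of -2.91, so the 2 probes differ in how far Krt10 followed Krt1. Krt13 and Krt16, keratins of mucosal and of stressed squamous epithelium, were called in no comparison by their brightest probes, which spanned 0.21 to 1.43 and -1.40 to 0.29 over the 13 arrays. A dimmer Krt13 probe, above background on 10 arrays, read -4.86 and -3.95 in microRNA normal tissue and -1.33 and -2.70 in control normal tissue.

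Other hair and Krtap members, named for their level within their class, were not called or were called lower in tumors. Krt42, a type I keratin grouped here with nail keratins, read 5.64 and 4.84 in microRNA tumors, a median of 5.05 (4.24 to 5.62) over control tumors, 6.24 and 5.75 in microRNA normal tissue and 6.32 and 6.33 in control normal tissue, with no overlap between tumors and normal samples. Its effect was -1.10 ± 0.27 over both groups of mice (adjusted p = 0.00982) and -0.11 without scaling, where it was not called. Krt81, a hair cortex keratin, spanned -0.17 to 0.92 over the 13 arrays and was not called. Krt85, a hair matrix keratin, was called lower in tumors by its brightest probe (-0.79 ± 0.25, adjusted p = 0.0329), for which no position is given here, while its other 2 probes had mean tumor differences of 0.32 and 0.26, so no direction is given for the gene. Krtap10-10 and Krtap20-2 were called lower over both groups of mice, by -1.39 ± 0.34 (adjusted p = 0.0102) and -1.87 ± 0.38 (adjusted p = 0.00466), and Krtap16-4 and Krtap4-8 were not called. Krt73 and Krt27, inner root sheath keratins, were called lower by -0.65 ± 0.20 (adjusted p = 0.027) and -2.05 ± 0.69 (adjusted p = 0.0396), with Krt73 at 0.34 without scaling. The Krt27 call was lost in 10 of 13 leave-outs and the Krt73 call in 4 of 13. Krt74, Krt80, Krt222, Lce1a2 and Sprr1a were named for their level and were called in no comparison.

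**Figure D5:**
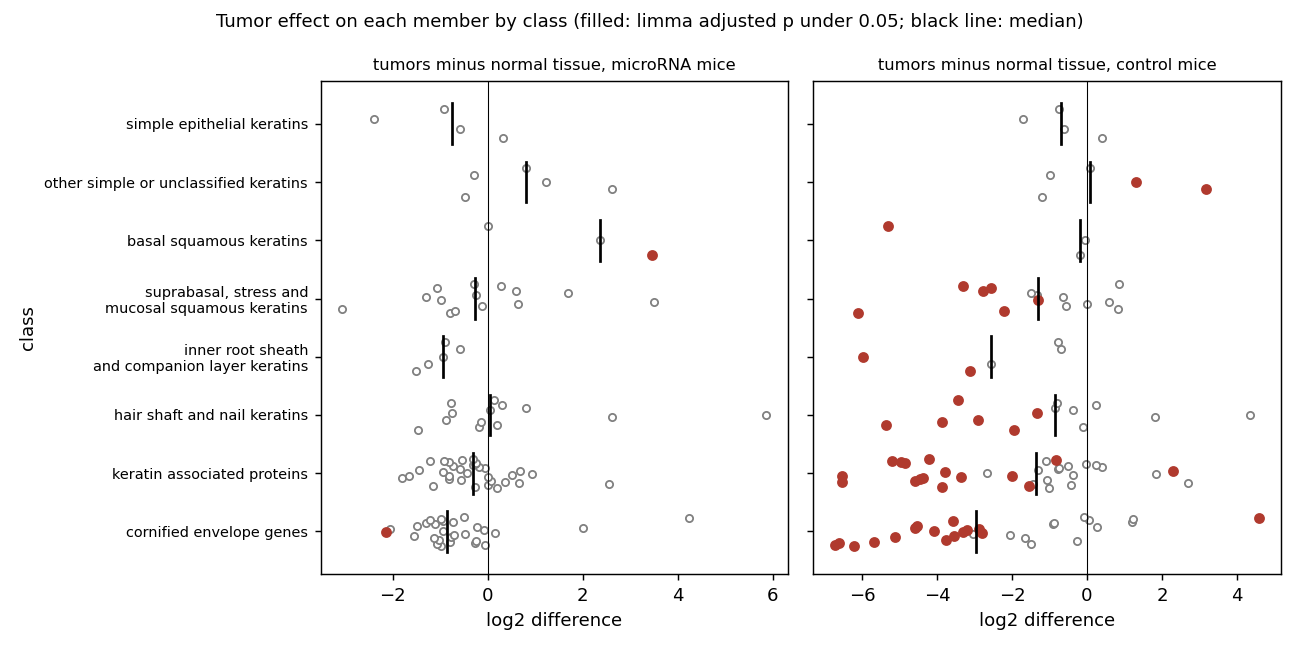
Each point is 1 of the 104 members, placed by its log2 tumor minus normal difference on the horizontal axis and its class on the vertical axis, in microRNA mice (left) and in control mice (right); filled points passed limma's adjusted p of 0.05 and black lines are class medians. In control mice 45 filled points lie left of 0 and 4 right of it, against 1 and 1 in microRNA mice.

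The tumor effect itself differed between the 2 groups of mice for 14 members, all with a more positive effect in microRNA mice (background 0.102% for that direction), and for none in the other direction (background 0.177%). Of the 14, 10 had passed the filter only through the control normal arrays; the other 4 were Krt5, Krt6b, Krt79 and Krt86. The 14 were among the 22 called between the normal tissues, a comparison that shares the same 4 normal samples. Their values show where the difference lay. For Krt5 the tumor effect was 0.00 ± 0.32 in microRNA mice and -5.31 ± 0.25 in control mice, a difference of 5.31 ± 0.40 (limma adjusted p = 0.000427), and tumors of the 2 groups differed by 0.09 ± 0.25. For Krtap16-1 it was 0.37 ± 0.72 and -6.54 ± 0.58, a fitted difference of 6.91 ± 0.92 (adjusted p = 0.00954), and for Krt33a it was 0.20 ± 0.60 and -5.37 ± 0.48, a fitted difference of 5.57 ± 0.77 (adjusted p = 0.0112). These are fitted values of genes near background in 3 groups and not bounds. With the replicate number of the titles as a block none of the 14 was called, with the slide as a block 9 members were, and without microRNA normal 1 only 4 were.

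No member differed between the tumors of microRNA mice and those of control mice by limma's adjusted p (background 0.00393% of all genes, which is 1 gene, in either direction). At an unadjusted p under 0.05 there were 5 of 104 members (4.81%), 2 higher and 3 lower, against 2.1% of all genes, and none of the other settings called a member. The median difference was -0.01 over the members and -0.0038 over all genes. For the simple keratins the differences were 0.10 ± 0.29 for Krt8, 0.12 ± 0.28 for Krt18, 0.18 ± 0.28 for Krt19 and 0.25 ± 0.78 for Krt20. Only 2 microRNA tumors were measured, and the spread of single genes such as Krt36 (SD 1.05 in microRNA tumors and 2.21 in control tumors) limits what could be seen.

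Genes that work beside the keratins were read from a list of 20 junction, cross-linking and regulatory genes of keratinocytes, of which 19 were tested. Over both groups of mice 4 were called higher in tumors (background 11.7% of all genes) and 4 lower (background 19.6%). The lower count thus lay near the share over all genes. Among the higher ones were Grhl3, a transcription factor of the epidermal barrier (3.80 ± 0.45, limma adjusted p = 0.000263), Tgm1, the transglutaminase that cross-links the envelope (1.68), and Ppl, a plakin that anchors keratin to it (1.23). The lower ones were Ovol1 (-1.96) and Klf4 (-1.49), transcription factors of epithelial differentiation, Alox12b, a lipoxygenase of the skin barrier (-1.15), and Evpl, another plakin (-0.46). Grhl3 read 1.5 and 0.84 in microRNA tumors, -0.40 to 1.63 in control tumors, -2.62 and -3.55 in microRNA normal tissue and -2.0 and -3.35 in control normal tissue, with all tumors above all normal samples. None of the 19 was called between the normal tissues. Desmoplakin (Dsp) and integrin alpha 6 (Itga6), the attachment points of keratin at junctions and at the basement membrane, were not called in any comparison.

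At the edge of the filter, 24 members were well above background on exactly 2 arrays and 21 on 1 array, and a further 15 were above it on none. Just inside, Ivl read -3.12 in control tumor 3 and -3.87 in control normal 2, the 2 arrays where it passed, and -4.29 or lower on the other 11 arrays. Just outside, Sprr3, a small proline-rich gene of the esophagus and skin, read -3.31 in control normal 1, where it passed, -4.40 in control normal 2 and -5.97 or lower elsewhere, and Krt77 read -3.52 in control normal 2 and -4.42 in control normal 1. All 13 arrays measured 40 of the members well above background. Names on the array and in the reference differ for 10 members, and Krt72-ps, which the reference names Krt72, was left among the unclassified keratins.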

How the data were processed

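Total RNA (35 ng) of colorectal tissue was labelled with Cy3 and hybridised to 1-colour Agilent mouse arrays, per the labels' protocols. The deposited files are scanner outputs whose processed signal is an intensity, background-subtracted by Feature Extraction 10.7.3.1, per the file headers; probe positions are on mm9. Samples were grouped by the submitters' labels. Here control and flagged spots were left out, log2 of the processed signal was taken relative to each array's 75th percentile, and probes well above background on at least 2 of 13 arrays were kept (35214 of 55681). The brightest probe stood for a gene, and 85 probes lacked a value on some array. limma 3.58.1 in R 4.3.3 fitted all 13 arrays by group, with tissue and treatment as additive terms for the comparison over both groups of mice, and Benjamini-Hochberg adjustment over 25413 genes. The code was tested on simulated data. Arrays have no read depth; the number of arrays, 2 in 3 of the 4 groups, limits the precision.

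Named in the text are the simple keratins, the 4 brightest members of each class, up to 6 called members with the largest rise and fall in each comparison, members whose probes disagree and members at the edge of the filter, though not each of these is described. Krt35, Hoxb13, Awat1, Myh8 and other marker genes given with values, and the called members listed beyond this rule, were chosen after their values were seen. The members and gene lists were chosen with earlier results of these data known. Alternatives were normexp background correction, quantile normalization, no scaling, no filter, the mean of all probes, blocks for slide, replicate number and file number, each slide alone, the compared groups alone and leaving out each array.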

Additional observations from a re-analysis of the deposited data

Results flagged for a closer look

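In control tumors, single samples stood far from the other 6 for 7 of the 42 named genes, and chance flags about 1 in 20 such groups. Control tumor 3 was highest for Krt14 at 0.96 (next -0.43), Krt81 at 0.92 (next 0.20), Krtap16-4 at 3.48 (next 2.60) and Krtap4-8 at 1.23 (next 0.29). It is the only control tumor on slide 2. Control tumor 5 was highest for Flg at -3.88 (next -6.21) and Krt71 at -4.81 (next -6.38), and control tumor 1 for Krt27 at -1.34 (next -4.31).

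The tumor effect differed between microRNA mice and control mice, by limma's test of the difference itself, for 14 members. Of these, 10 passed the filter only through the control normal arrays, so their values are measured against background elsewhere; Krt5, Krt6b, Krt79 and Krt86 are the other 4. The differences (log2, microRNA mice minus control mice) were 5.31 for Krt5, 5.34 for Krt1, 3.38 for Krt6b, 3.59 for Krt79, 5.04 for Krt71, 5.57 for Krt33a and 3.57 for Krt86. They were 6.91 for Krtap16-1, 5.73 for Krtap22-2, 4.17 for Krtap6-2, 5.22 for Crct1, 4.91 for Lce1a1, 4.35 for Lce1d and 2.97 for Lce1l.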

How the results depend on the processing

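The count of members called over both groups of mice (61) was 14 with the replicate block, 0 on slide 1 alone and 16 on slide 2 alone, and 30 to 61 with 1 array left out (31 without control normal 1, 30 without control normal 2). In control mice (49) it was 29 with the replicate block and 31 on slide 2 alone, and 26 to 56 with 1 array left out (26 without control normal 1). In microRNA mice (2) it was 7 with normexp, 1 with quantile normalization, 10 without scaling, 9 with the replicate block, 6 with the file number as a random block and 0 on slide 1 alone. It was 0 to 4 with 1 array left out (0 without either microRNA normal sample or microRNA tumor 1, 4 without control tumor 3, 1 without control tumor 4). Between the normal tissues (22) it was 8 with normexp, 6 with the replicate block, 0 on slide 2 alone and 4 with the compared groups alone, and 11 to 29 with 1 array left out (11 without microRNA normal 1, 13 without microRNA normal 2). For the difference between tumor effects (14) it was 2 with normexp, 9 with the slide block, 0 with the replicate block and 0 on slide 2 alone, and 4 to 26 with 1 array left out (4 without microRNA normal 1, 7 without microRNA normal 2, 6 without microRNA tumor 1, 7 without microRNA tumor 2, 8 without control tumor 4, 6 or 7, 26 without control normal 2). Between tumors it was 0 under every alternative run. The share of all genes called moved with the setting too. Over both groups of mice it was 31.4% in the main fit and 11.1% with the replicate block. In control mice these 2 shares were 19.1% and 1.75%. In microRNA mice it was 3.18% in the main fit, 9.88% with normexp, 3.34% with quantile normalization and 12.1% without scaling. There it was 4.8% with the replicate block and 9.04% with the file number block. Between the normal tissues the share of all genes was 0.527% in the main fit and 0.295% with normexp. It was 0.244% with the replicate block and 0.216% with the compared groups alone. For the difference between tumor effects it was 0.279%, then 0.157% with normexp, 0.279% with the slide block and 0.0472% with the replicate block. Outside the comparison between tumors, the share was lower on each slide alone, where it could be fitted. The slides alone and the leave-outs hold fewer samples. For the other settings the cause was not tested. Without scaling the split in control mice was 18 higher and 37 lower, against 4 and 45. Over all genes it was 12052 higher and 489 lower, against 2096 and 2761. Directions reversed on slide 1 alone, over both groups of mice, for Flg (0.40), Krt5 (0.23), Krtap16-1 (0.58) and Krtdap (0.32); slide 1 holds no control normal sample. They reversed without scaling for Krt19 (0.39, and 0.44 in control mice), Krt73 (0.34), Krt8 (0.18, and 0.30 in control mice) and Krt85 (0.20), with quantile normalization for Krt19 in control mice (0.046) and with normexp for Krtap28-13 (-0.38); the cause was not tested. Same-numbered tumor and normal samples deviated together with r = 0.42 in microRNA mice and r = -0.14 and -0.09 in control mice. The replicate numbers were not taken as pairs, but r from so few samples cannot settle whether samples share a mouse. The file number used as a block was 8 for microRNA normal 1 and microRNA tumor 1, and 2 for microRNA normal 2 and microRNA tumor 2. It was 10 for control normal 2 and control tumor 3, and 9 for control normal 1. Control tumors 1 and 2 shared 5, and control tumors 4 to 7 shared 6. Whether a shared file number means a shared mouse was not tested. Control-mouse and normal-tissue comparisons could not be made on slide 1. Members near background have little signal to measure.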
